A study of Rattus norvegicus with 120 samples.

Results

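rno-miR-155-5p is the 5′ arm of the rat miR-155 hairpin, and it was followed here across 3 stages and 2 onset ages of epileptogenesis. It was chosen by its name, with earlier results of these data known, as 1 of 666 mature miRNAs listed in small RNA libraries of the hippocampus. It was listed in the acute, latent and chronic stages alike. All rats were male Wistar rats given LiCl, controls included. Pilocarpine, which activates muscarinic receptors, brought on status epilepticus (SE, a seizure that does not end by itself) at postnatal day 60 (adult-onset) or 12 (infancy-onset), and age-matched controls had saline in its place. Sampling of the hippocampus followed after 24 hours in the acute stage, 1 week in the latent stage and 3 months in the chronic stage. In the acute stage the counts came from 9 SE rats and 9 controls of the adult-onset arm and from 8 SE rats and 9 controls of the infancy-onset arm. The latent stage had 10 libraries in each of its 4 groups, and the chronic stage had 10, 10, 10 and 9 in the same order. By the methods of the study, paraldehyde followed once convulsive SE had begun, so that fewer rats died, and whether controls had it too is not stated. Only pilocarpine rats with sustained forelimb clonus were kept. Doses of pilocarpine and paraldehyde per kg were larger in adult-onset than in infancy-onset rats. From the chronic adult-onset SE rats the study also left out a rat without motor seizures, a rat with repeated tonic-clonic seizures and a rat with a tumor. A difference between SE rats and controls therefore holds pilocarpine, seizures and any effect of paraldehyde together, which cannot be told apart. Likewise, a difference in the SE change between onset ages holds age, dose and selection together.

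miR-155 is cut from a long noncoding transcript, BIC, which macrophages, microglia and lymphocytes switch on through NF-kB and AP-1 when toll-like or cytokine receptors are engaged. The mature 5p strand lowers repressors of inflammatory signalling such as Socs1 and Inpp5d (Ship1), and so it is known as a pro-inflammatory miRNA of microglia. miR-146a, induced by the same factors, is its textbook counterpart, since it lowers the adaptors Irak1 and Traf6 and feeds back on NF-kB.

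The mature strands are shown because the 2 arms of this hairpin were measured separately and because reads were assigned by the mature sequence. RefSeq (GRCr8) places rno-miR-155-5p on chromosome 11, at 37261117 to 37261139 on the plus strand, and the 3p arm at 37261156 to 37261176. Both lie in the hairpin gene Mir155 (37261114 to 37261178), inside the noncoding gene Mir155hg (37259928 to 37262157), whose other name is Bic. The seed, bases 2 to 8, is in capitals in the sequences printed here, and rno-miR-146a-5p is set beside them as the counterpart.
rno-miR-155-5p: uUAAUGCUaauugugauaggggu
rno-miR-155-3p: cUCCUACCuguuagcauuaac
rno-miR-146a-5p: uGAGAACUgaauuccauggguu
None of the other rat mature miRNAs among the 693 in RefSeq held the seed UAAUGCU, or even bases 2 to 7 of it. The nearest mature sequence, rno-miR-26b-5p, was 8 edits away, while reads had been assigned with at most 1 mismatch.

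The 3p arm was hardly seen. In the acute stage it had 8 reads in 6 libraries, against 2488 reads of the 5p arm, and it was not listed in the other stages. Of these 8 reads, 6 lay in 4 libraries of infancy-onset SE rats and 2 in 2 libraries of infancy-onset controls, and adult-onset libraries had 0. No comparison was made on so few reads.

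miR-155-5p itself was a miRNA of low to middle abundance. Its level is given in CPM, its share of a library's miRNA reads scaled to a common depth, with TMM scaling within a stage, and it collected 2488, 3629 and 2547 reads over the acute, latent and chronic libraries. In acute SE rats its median rank by level was 242 (adult-onset) and 225.5 (infancy-onset) of the 623 miRNAs listed, whereas in chronic infancy-onset controls it was 408 of 653. Libraries held from 309975 to 4026890 miRNA reads in the acute, 450644 to 8165312 in the latent and 499094 to 28111631 in the chronic stage. In 1 chronic infancy-onset SE library with 499094 reads, miR-155-5p had 0 reads (exact 95% Poisson interval up to 10.4 CPM), where 3 reads would be 8.48 CPM. Intervals and floors here cover counting error only, because PCR copies were not told apart.

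Ordered by median CPM, the 12 groups ran from acute infancy-onset SE rats (133), acute adult-onset SE rats (97.2) and acute infancy-onset controls (52.6) through latent adult-onset SE rats (48.7), latent infancy-onset SE rats (37.3) and latent infancy-onset controls (30.5). Chronic adult-onset SE rats (17.9), latent adult-onset controls (10.4), acute adult-onset controls (7.73), chronic adult-onset controls (6.41), chronic infancy-onset SE rats (6.20) and chronic infancy-onset controls (3.85) followed. The ranges of every pair of neighbours in this order overlapped. Each stage was scaled by itself, so levels of different stages are set side by side as a description only.

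**Figure D1:**
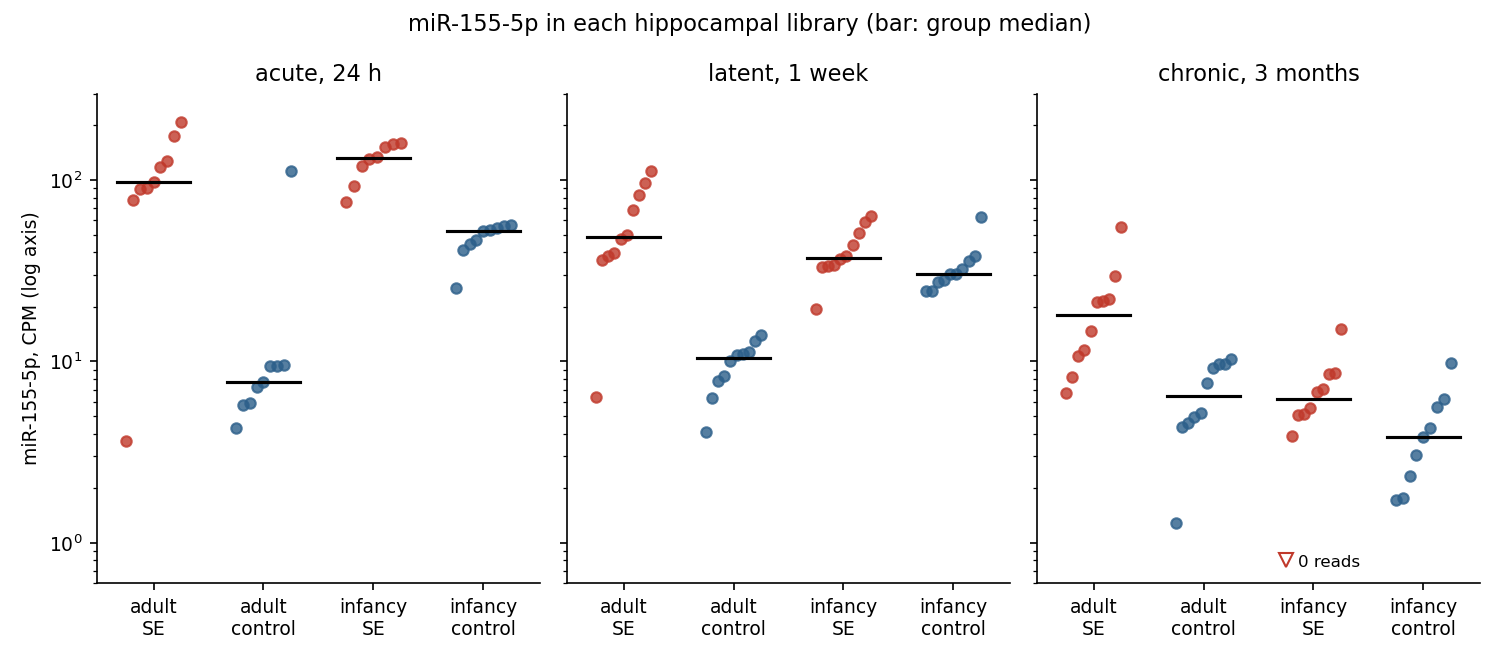
CPM of miR-155-5p (log axis) in each library of the acute, latent and chronic stages, by onset age and treatment; points are libraries and black bars are group medians. The 8 acute infancy-onset SE libraries all lie above their 9 controls, adult-onset SE medians are above those of their controls in all 3 stages (97.2 against 7.73, 48.7 against 10.4 and 17.9 against 6.41 CPM), and the open triangle marks the library with 0 reads.

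Before the comparisons, 3 adult-onset libraries have to be named, because their miR-155-5p level lay with the other group. In the acute stage the library labelled SE 1-S1 had 2 miR-155-5p reads, or 3.66 CPM (exact 95% Poisson interval 0.444 to 13.2), below every control. The library labelled control 1-S8 had 55 reads, or 112 CPM (84.7 to 146), while the other 8 controls lay between 4.30 and 9.60 CPM. Other miRNAs were compared in the same libraries. Among 24 other miRNAs that passed the test when both were left out, 1-S1 was nearer to the control mean for 15 and 1-S8 nearer to the SE mean for 17. miR-212-3p, a miRNA induced by neuronal activity, was at 533 CPM in 1-S1, between the 803 to 1646 CPM of the other SE libraries and the 253 to 449 CPM of the other controls. It was at 1137 CPM in 1-S8, within the range of the other SE libraries. In the latent stage the library labelled SE 2-S1 had 6.37 CPM of miR-155-5p, within the controls, and was nearer to the control mean for 37 of 45 other miRNAs. The labels also give 11 SE rats and 9 controls to the acute adult-onset arm, where the design of the series names 10 of each. All 3 libraries were kept under their labels. Values for miR-155-5p without them are given beside the main ones, with no p, because these libraries were singled out by their miR-155-5p level and leaving them out fixes much of the separation. Without 1-S1 and 1-S8 the acute adult-onset comparison had 25 calls instead of 15, and without 2-S1 the latent one had 46 instead of 37.

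**Figure D2:**
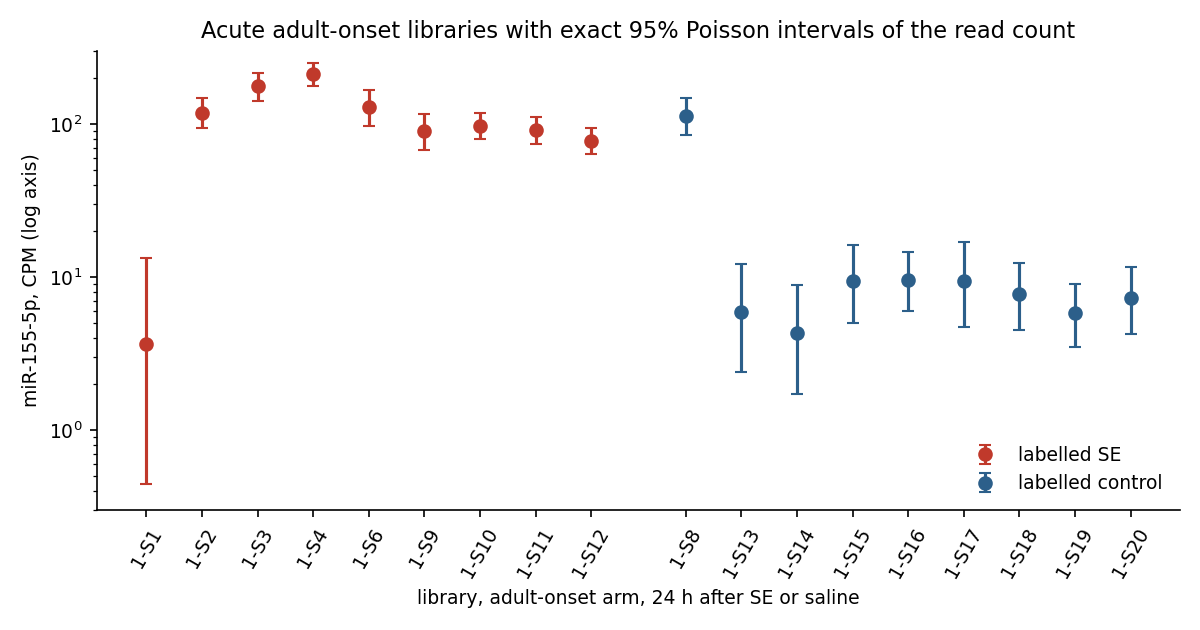
CPM of miR-155-5p (log axis) in the 18 acute adult-onset libraries, red for those labelled SE and blue for those labelled control; bars are exact 95% Poisson intervals of the read count. Library 1-S1 (3.66 CPM) has an interval that overlaps the controls, and 1-S8 (112 CPM) sits among the SE libraries, which otherwise run from 77.5 to 210 CPM.

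In adult-onset rats miR-155-5p was higher 24 hours after SE. SE rats had 3.66 CPM at the lowest, a median of 97.2 and 210 at the highest, whereas controls had 4.30, 7.73 and 112. As labelled, 8 of 9 SE rats lay above the control median and 4 above every control, so that the groups overlapped through 1-S1 and 1-S8 alone. The log2 fold change was 2.98 (standard error 0.58), a 7.89-fold rise with a 95% interval from 3.57 to 17.4 (edgeR quasi-likelihood test, Benjamini-Hochberg adjusted p = 0.00319 over 470 miRNAs). Of the miRNAs tested, 3.19% passed in this comparison (2.55% higher and 0.638% lower), and 2 had a larger fold change. An exact two-sided permutation test of the mean log2 CPM gave p = 0.00284. Without 1-S1 and 1-S8 the 8 SE rats had 77.5 to 210 CPM and the 8 controls 4.30 to 9.60 CPM, with a log2 fold change of 4.10 (standard error 0.24). SE libraries of this arm were also shallower (434419 to 1408898 reads) than those of controls (507283 to 4026890 reads). The part of depth was not tested.

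In infancy-onset rats miR-155-5p was also higher 24 hours after SE, and the groups did not overlap. SE rats had 75.9, 133 and 160 CPM (lowest, median, highest), against 25.3, 52.6 and 56.4 CPM in controls. All 8 SE rats lay above all 9 controls, a separation that 0.851% of the tested miRNAs showed in this comparison. The log2 fold change was 1.42 (standard error 0.17), a 2.67-fold rise (95% interval 2.12 to 3.36, edgeR adjusted p = 5.77e-06 over 470 miRNAs, of which 4.68% passed, 2.98% higher and 1.7% lower). The exact permutation p was 4.11e-05, the smallest this design allows. With all 4 acute groups in 1 fit the edgeR call was lost (log2 fold change 1.4, adjusted p = 0.0507). The coefficient of variation was 23.8% in SE rats, where counting alone would give 9.12%, and 20.9% in controls, where counting alone would give 16.5%.

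At 24 hours the controls of the 2 ages differed. Infancy-onset controls, about 13 days old at sampling, had 25.3, 52.6 and 56.4 CPM, whereas adult-onset controls, about 61 days old, had 4.30, 7.73 and 112 CPM (lowest, median, highest). Infancy-onset controls were higher by 1.76 on the log2 scale (standard error 0.46, 3.40-fold, edgeR adjusted p = 0.00111), and by 2.70 without 1-S1 and 1-S8. In this comparison of ages 62.1% of all miRNAs passed, 31.5% higher and 30.6% lower. The SE change itself was larger in adult-onset rats by 1.54 on the log2 scale (standard error 0.62), which did not pass the test of the interaction (unadjusted p = 0.017, edgeR adjusted p = 0.285, 0.426% of miRNAs passed). Leaving out each library in turn gave differences of 1.37 to 2.47, the highest without 1-S8. With every library the interaction passed in limma voom with sample weights (2.32, adjusted p = 0.000978). Without both 1-S1 and 1-S8 the difference was 2.63 (standard error 0.29).

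In the latent stage, 1 week after SE, the 2 onset ages differed. Adult-onset SE rats had 6.37, 48.7 and 112 CPM (lowest, median, highest), against 4.07, 10.4 and 14.01 CPM in controls. 9 of 10 SE rats lay above every control, and the exception was 2-S1. The log2 fold change was 2.50 (standard error 0.33, 5.66-fold, 95% interval 3.62 to 8.84, edgeR adjusted p = 3.12e-05). miR-155-5p had the lowest p of 506 miRNAs in this comparison, in which 7.31% passed (6.92% higher and 0.395% lower), and ranked 4 by fold change. A permutation test with 100000 resamples gave p = 0.0001. Without 2-S1 the log2 fold change was 2.64 (standard error 0.25).

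Infancy-onset rats showed no call 1 week after SE. SE rats had 19.5, 37.3 and 63.7 CPM, against 24.4, 30.5 and 62.2 CPM in controls, and the ranges overlapped almost wholly. SE over control was 0.32 on the log2 scale (standard error 0.19, edgeR adjusted p = 0.515, permutation p = 0.169), and the 95% interval of the fold ran from 0.971 to 1.61. In this comparison 0 of 506 miRNAs passed with edgeR, 62 had an unadjusted p under 0.05, and DESeq2 called 10, limma voom 1 and limma-trend 1, none of them miR-155-5p. Unlike in the acute stage, the difference between the onset ages was itself past the threshold. The adult-onset change exceeded the infancy-onset change by 2.22 on the log2 scale (standard error 0.39, 4.65-fold, edgeR adjusted p = 0.000155, 2.96% of miRNAs passed, 2.77% with a higher change in adult-onset rats), and by 2.35 without 2-S1. Infancy-onset controls, about 19 days old, had 24.4, 30.5 and 62.2 CPM, and adult-onset controls, about 67 days old, had 4.07, 10.4 and 14.01 CPM, with no overlap between them, which held for 16.8% of all miRNAs in this comparison of ages. The log2 difference of these controls was 1.73 (standard error 0.29, edgeR adjusted p = 1.81e-06), in a comparison in which 51.8% of miRNAs passed, 25.7% higher and 26.1% lower.

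In the chronic stage, 3 months after SE, the adult-onset rise was again called. Adult-onset SE rats had 6.67, 17.9 and 55.3 CPM (lowest, median, highest), against 1.29, 6.41 and 10.3 CPM in controls. All 10 SE rats lay above the control median and 8 above every control. The log2 fold change was 1.53 (standard error 0.34, 2.89-fold, 95% interval 1.82 to 4.60, edgeR adjusted p = 0.0162, rank 3 by size of 531 miRNAs, of which 1.13% passed, 0.753% higher and 0.377% lower). The permutation p was 0.00089 over 100000 resamples. SE rats spread more than controls, with a coefficient of variation of 71.1% against 45.4%, and the highest SE library, 3-S3 at 55.3 CPM, stood apart from the next at 29.6 CPM. Without 3-S3 the log2 fold change was 1.21, the lowest value that leaving out any 1 library gave, and every such value stayed called.

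Infancy-onset rats had 0, 6.20 and 15.1 CPM in the chronic stage, against 1.72, 3.85 and 9.82 CPM in controls. SE over control was 0.71 on the log2 scale (standard error 0.37, unadjusted p = 0.0701, edgeR adjusted p = 0.775), with a 95% interval of the fold from 0.985 to 2.70. 9 of 10 SE rats lay above the control median, and the exact permutation p was 0.561. The SE library with 0 reads entered this test at a log2 CPM of -1.56, set by the prior count, the others at 2.07 to 3.95. With a prior count of 0.5 in place of 2, the exact permutation p was 0.859, so this test depends on that library. Here 0 of 532 miRNAs passed with edgeR, DESeq2, limma voom or limma-trend, while 24 had an unadjusted p under 0.05 with edgeR. These libraries held few reads of this miRNA (median 25 in SE rats and 13 in controls). The adult-onset change exceeded the infancy-onset change by 0.85 (standard error 0.51), which did not pass (edgeR adjusted p = 0.792, 0.94% of miRNAs passed). The control arms no longer differed past the threshold, with a log2 difference of -0.66 for infancy-onset over adult-onset controls (standard error 0.37, edgeR adjusted p = 0.305, 4.32% of miRNAs passed).

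**Figure D3:**
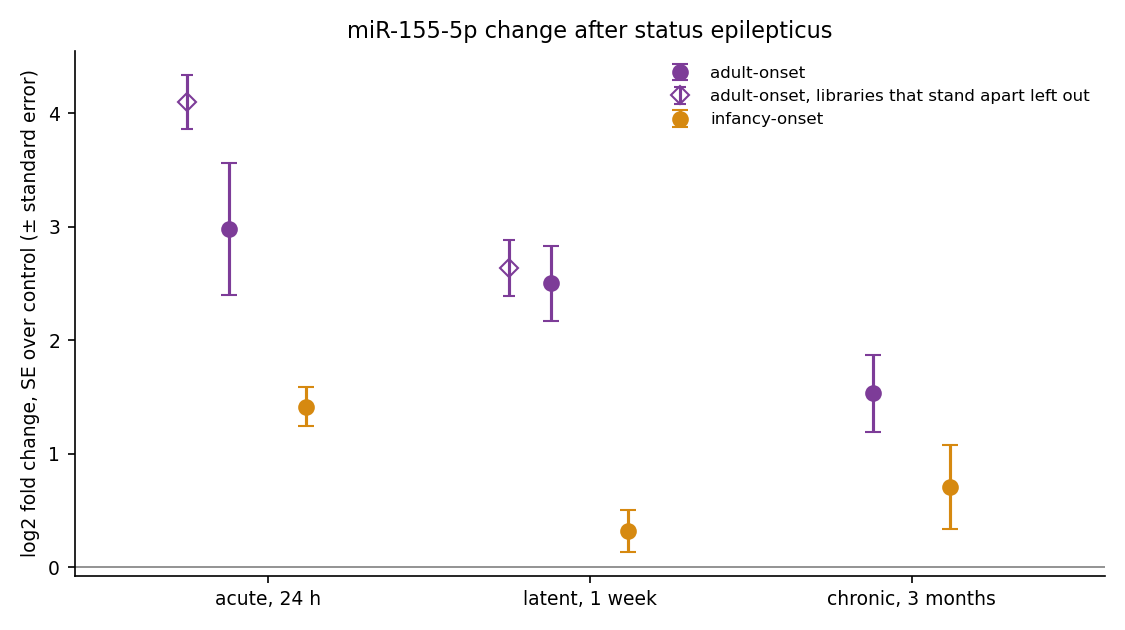
log2 fold change of miR-155-5p, SE over control, with its standard error, by stage and onset age; filled circles use all libraries and open diamonds leave out 1-S1 and 1-S8 (acute) or 2-S1 (latent). Adult-onset values are 2.98, 2.50 and 1.53 (4.10 and 2.64 without those libraries) and infancy-onset values 1.42, 0.32 and 0.71.

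With both onset ages in 1 fit and onset age as a covariate, miR-155-5p rose in every stage. Its log2 fold change was 2.12 in the acute (standard error 0.34, edgeR adjusted p = 1.50e-05), 1.37 in the latent (0.27, adjusted p = 0.00109) and 1.18 in the chronic stage (0.26, adjusted p = 0.008). In the acute fit 10.6% of miRNAs passed (4.47% higher and 6.17% lower), in the latent fit 10.5% (7.71% higher and 2.77% lower) and in the chronic fit 1.69% (0.94% higher and 0.752% lower), and miR-155-5p had the largest fold change of all in the acute stage. Without 1-S1 and 1-S8 the acute value was 2.56, and without 2-S1 the latent value was 1.42. These pooled values average over the latent difference between the onset ages.

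How the SE change moved over time was tested in a joint fit of all 12 groups. In adult-onset rats the change differed by -0.37 on the log2 scale between the latent and acute stages (standard error 0.53, edgeR adjusted p = 0.749), by -1.0 between the chronic and latent stages (0.51, adjusted p = 0.402) and by -1.37 between the chronic and acute stages (0.54, adjusted p = 0.142). None of these passed, while 2.99%, 1.5% and 4.27% of 468 miRNAs did. Without 1-S1, 1-S8 and 2-S1, the latent minus acute difference was -1.43, the chronic minus latent difference -1.13 and the chronic minus acute difference -2.56. In limma voom with every library the chronic minus acute difference was -2.43 (adjusted p = 0.00103), and the infancy-onset latent minus acute difference was -1.09 (adjusted p = 0.0196). Leaving out 1-S8 alone gave -2.40 for the chronic minus acute difference, and leaving out 3-S3 alone gave -1.69 (edgeR adjusted p = 0.0417). In infancy-onset rats the differences were -1.15 (latent minus acute, standard error 0.51, adjusted p = 0.408), 0.44 (chronic minus latent, 0.51, adjusted p = 0.9) and -0.71 (chronic minus acute, 0.54, adjusted p = 0.998), and 1.07%, 0% and 1.28% of miRNAs passed.

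In whole hippocampus a rise in a myeloid miRNA can stand for more such cells or for more of it per cell, and bulk libraries cannot tell these apart. The other listed miRNAs of microglia and blood myeloid cells are therefore given beside it. They are miR-142-3p and miR-142-5p, the 2 arms of a hairpin of all blood cell lineages, miR-223-3p of neutrophils and monocytes, and miR-146a-5p. The list, called myeloid below, also holds miR-150-5p of mature lymphocytes, which are not myeloid cells. Acutely, 2 of these 5 rose in adult-onset SE rats, miR-223-3p (log2 fold change 2.36, standard error 0.40) and miR-142-3p (0.87, 0.20), where 2.55% of all miRNAs were called higher. Without 1-S1 and 1-S8, 3 of 5 rose, namely miR-223-3p (2.598), miR-142-3p (0.91) and miR-142-5p (1.0). miR-142-3p alone rose in infancy-onset SE rats (0.86, 0.20), where 2.98% of all miRNAs were called higher. The median over the 5 was 0.82 and 0.71, against 0.00079 and -0.02 over all miRNAs tested. Their summed level was 1064 to 2459 CPM in adult-onset SE rats and 983 to 1582 CPM in controls, and 746 to 988 CPM in infancy-onset SE rats and 594 to 888 CPM in controls.

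miR-146a-5p, the counterpart, did not follow in the acute stage. It had 117, 168 and 223 CPM in acute adult-onset SE rats (lowest, median, highest), against 111, 163 and 232 CPM in controls, with a log2 fold change of 0.19 (standard error 0.16, edgeR adjusted p = 0.521). In infancy-onset rats its log2 fold change was -0.003 (standard error 0.18, adjusted p = 0.995). miR-21-5p, a miRNA of reactive astrocytes and microglia, rose at both ages, by 1.15 in adult-onset (standard error 0.29, and by 1.46 without 1-S1 and 1-S8) and 1.61 in infancy-onset rats (0.21).

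One week after SE, 3 of the 5 myeloid miRNAs rose in adult-onset rats, where 6.92% of all miRNAs were called higher. These were miR-142-3p (1.59, standard error 0.27), miR-142-5p (1.4, 0.23) and miR-146a-5p (1.18, 0.20). The same 3 passed without 2-S1, where 42 of 506 miRNAs were called higher. miR-146a-5p then had 199, 685 and 946 CPM in SE rats, against 221, 264 and 355 CPM in controls, so that both it and miR-155-5p were up. The summed level of the 5 was 1011 to 1878 CPM in SE rats and 777 to 1204 CPM in controls, and their median log2 fold change was 1.18, against -0.04 over all miRNAs. In infancy-onset rats 0 of the 5 passed and the median was -0.02, with summed levels of 765 to 911 CPM in SE rats and 727 to 927 CPM in controls. The change of 3 of the 5 was also larger in adult-onset rats by the test of the interaction, where 2.77% of all miRNAs were called so.

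In the chronic stage miR-146a-5p was the only 1 of the 5 to pass in adult-onset rats, at 1.09 (standard error 0.20, edgeR adjusted p = 0.00622), and 0 of 5 passed in infancy-onset rats (summed levels of 379 to 658 CPM in SE rats and 427 to 863 CPM in controls). All 5 had a positive fold change in adult-onset rats, with a median of 0.63 against -0.08 over all miRNAs, and summed levels of 641 to 1017 CPM in SE rats and 427 to 675 CPM in controls. Over the 9 other miRNAs of inflammation and reactive glia, of which 7 to 8 were tested in a stage, 3, 3 and 1 rose in adult-onset rats (acute, latent, chronic), where 2.55%, 6.92% and 0.753% of all miRNAs were called higher. In infancy-onset rats 1, 0 and 0 rose, where 2.98%, 0% and 0% were called higher, and none fell in these 6 comparisons. Without 1-S1 and 1-S8 the acute adult-onset count was 4, where 20 of 470 miRNAs were called higher. This list shares miR-146a-5p and miR-223-3p with the myeloid list, and the 1 of the chronic stage is miR-146a-5p again.

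**Figure D4:**
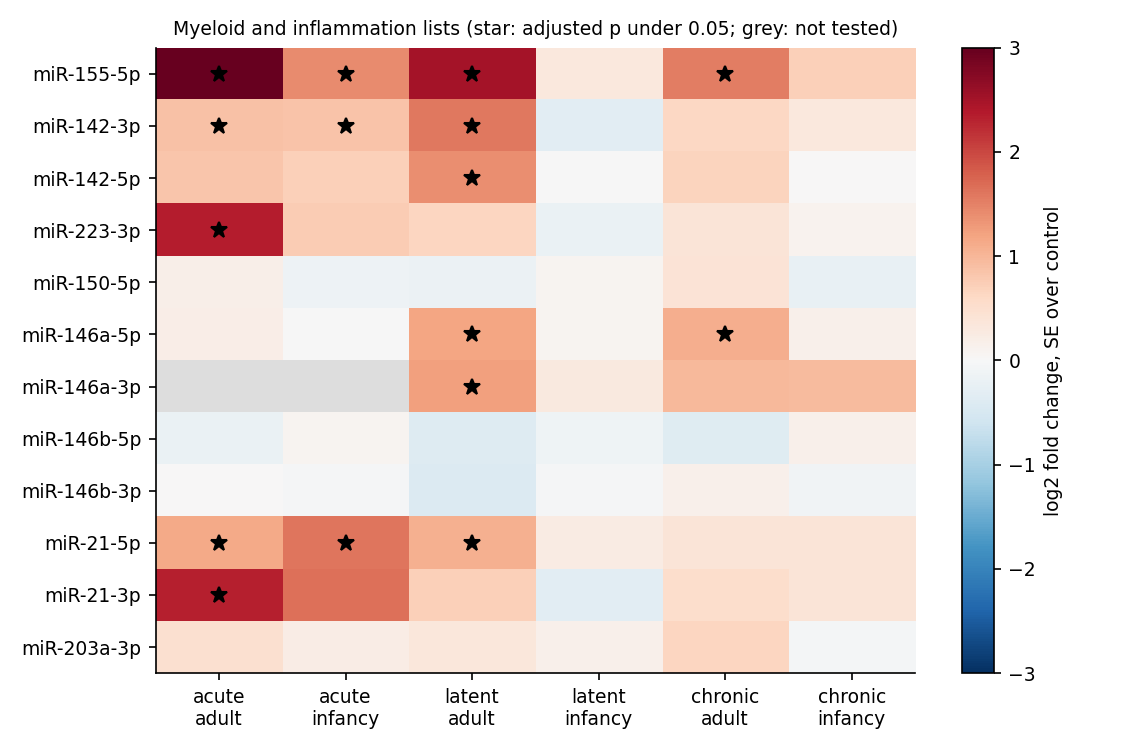
log2 fold change (colour), SE over control, of miR-155-5p and the other miRNAs of the myeloid and inflammation lists in the 6 comparisons; stars mark an edgeR adjusted p under 0.05 and grey cells were not tested. miR-155-5p is starred in 4 of 6 columns, the latent and chronic infancy columns have no star, and miR-146a-5p is starred in the latent and chronic adult-onset columns only.

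Markers of other cells were counted in the same way. Of 4 erythroid miRNAs, among them miR-451-5p, 0 passed in any of the 6 comparisons, and neither did any of 5 neuronal, 3 oligodendrocyte or 4 vessel miRNAs. In these comparisons 0% to 7.31% of all miRNAs passed, so counts of 0 in lists this short do not set these cells apart. Of 7 miRNAs of choroid plexus and ependyma, miR-211-5p rose in latent adult-onset rats (1.07, standard error 0.31), where 6.92% of all miRNAs were called higher. Without 2-S1 miR-34c-5p passed too (0.95), where 42 of 506 miRNAs were called higher. All 7 had a positive fold change there, with a median of 0.79, against -0.04 over all miRNAs. Their summed level was 759 to 9811 CPM in these SE rats (median 1023) and 845 to 1207 CPM in controls (median 985), so the medians lay close together. In chronic adult-onset rats miR-211-5p rose again (1.55, 0.34), where 0.753% of all miRNAs were called higher. The other 6 had negative fold changes that did not pass, and the median over the 7 was -0.46, against -0.08 over all miRNAs. There the sum was 682 to 1409 CPM in SE rats (median 1048) and 773 to 6176 CPM in controls (median 983). Summed erythroid levels were 391 to 863 CPM in acute adult-onset SE rats and 344 to 787 CPM in controls, and 259 to 640 CPM in latent adult-onset SE rats and 206 to 661 CPM in controls. The neuronal sum was 69015 to 94768 CPM in latent adult-onset SE rats and 81800 to 129702 CPM in controls. In latent and chronic adult-onset rats 0 of the 5 neuronal miRNAs had a positive fold change. Their medians were -0.29 and -0.27, against -0.04 and -0.08 over all miRNAs. Acutely 3 of 5 were positive in adult-onset rats, and in infancy-onset rats 2 of 5 were positive in each stage. With both onset ages in 1 fit, 1 neuronal miRNA was called lower in the acute stage, where 6.17% of all miRNAs were. In each stage 1 choroid and ependyma miRNA was called higher in that fit, where 4.47%, 7.71% and 0.94% of all miRNAs were. The part of these cell types in the miR-155-5p change was not tested.

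Between young and adult controls of the acute stage, 1 of the 5 other myeloid miRNAs was called higher and 2 lower. Of all miRNAs, 31.5% were called higher and 30.6% lower there, so these counts do not set the myeloid miRNAs apart. In the acute stage, infancy-onset controls were higher than adult-onset controls for miR-146a-5p (log2 difference 0.78, standard error 0.18, edgeR adjusted p = 0.00021) and lower for miR-142-5p (-0.80, 0.26, adjusted p = 0.00702) and miR-150-5p (-1.26, 0.17, adjusted p = 4.08e-08). miR-142-3p (-0.26, 0.20, adjusted p = 0.258) and miR-223-3p (0.0064, 0.34, adjusted p = 0.992) did not pass. miR-21-5p was lower in infancy-onset controls, by -1.25 in the acute (0.26, adjusted p = 7.44e-05) and -0.56 in the latent stage (0.16, adjusted p = 0.00289). In the latent stage none of the 5 myeloid miRNAs was higher in infancy-onset controls past the threshold, where miR-155-5p was higher by 1.73. Of the 5, miR-150-5p was lower (-0.87, 0.12, adjusted p = 2.36e-08). Here 25.7% of all miRNAs were called higher and 26.1% lower.

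The miRNAs whose pattern was most like that of miR-155-5p were sought over the 12 group means of log2 CPM, each centred on its stage, among 467 miRNAs tested in all stages. Pearson's r was 0.86 for miR-27a-5p, 0.80 for miR-19a-3p, 0.77 for miR-92a-1-5p, 0.75 for miR-653-5p and 0.72 for miR-146a-5p. The group means come from the same libraries and share their depth, so these values are a description. The first 4 were at low levels, with medians from 0.748 to 47.1 CPM over the groups, and their centred means spread less than those of miR-155-5p (SD 0.35 to 0.57, against 1.06). None of the 5 shares its seed.

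**Figure D5:**
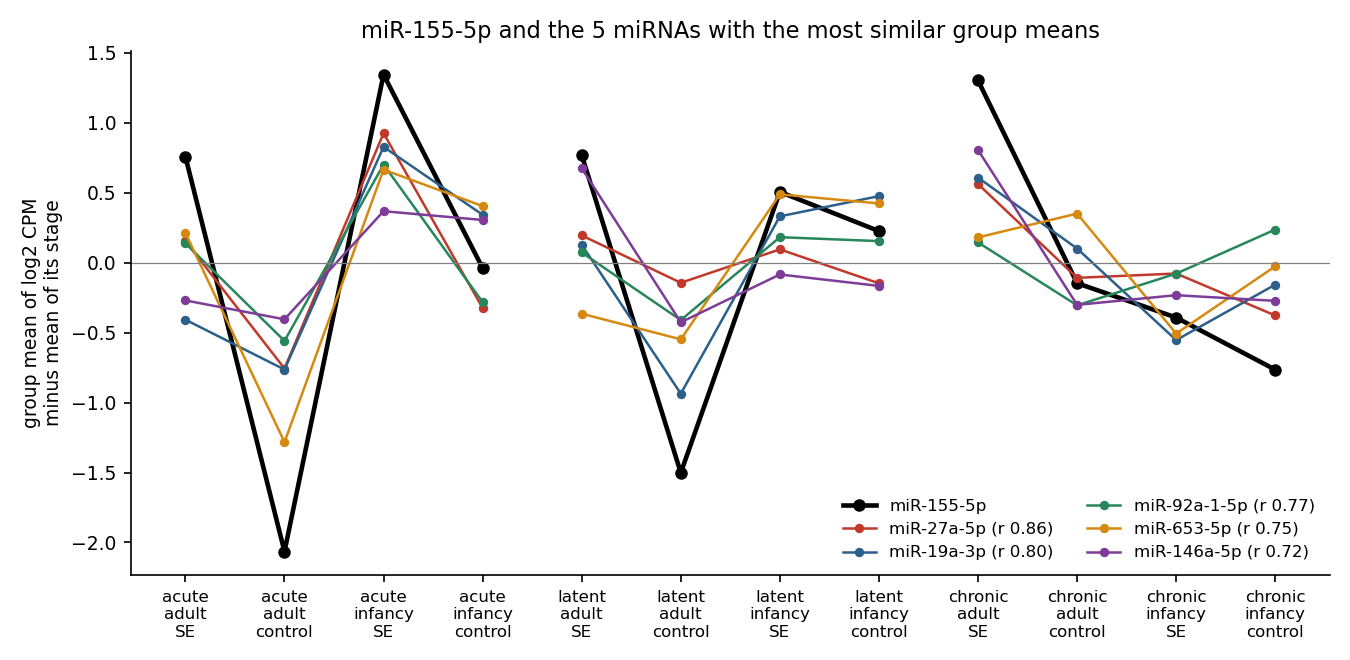
Group means of log2 CPM minus the mean of their stage, for miR-155-5p (black) and the 5 miRNAs with the most similar means; lines join the 4 groups of a stage. miR-155-5p spans the widest range, from -2.06 in acute adult-onset controls to 1.34 in acute infancy-onset SE rats, and miR-146a-5p parts from it in the acute adult-onset groups (-0.27 in SE rats and -0.40 in controls, against 0.76 and -2.06).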

How the data were processed

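Small RNA of whole hippocampus was sequenced, with 1 library per rat, and 114 of 120 labelled libraries were used. Per the labels, the other 6 held under 300000 miRNA reads. The authors trimmed adapters (Kraken, Cutadapt), kept reads of 16 to 28 bases, matched these to miRBase in seqBuster with up to 1 mismatch, and name DESeq2 1.16.1. The deposited counts are raw reads per mature miRNA. The deposited signal values are the authors' normalized reads, which equal the counts divided by 1 constant per library, and served as an alternative only.

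Tests on counts used edgeR 4.0.16 (limma 3.58.1, R 4.3.3), by its quasi-likelihood F test after TMM scaling. miRNAs with at least 100 reads summed over a stage were tested, and p values were adjusted by Benjamini and Hochberg over all of them. A call needs an adjusted p under 0.05. SE rats were compared with controls per onset age (2-group fit) and over both ages, and interactions and control arms were tested in fits of 4 groups. Changes between stages were tested in a fit of 12 groups. The standard error is the log2 fold change over the square root of F, and intervals are 95%. Permutation tests (two-sided, numpy 2.4.6) used the mean log2 CPM with a prior count of 2, over all regroupings or 100000 resamples. Poisson intervals were computed with scipy 1.17.1. Alternatives were RLE or no scaling, minima of 500 or 1 read, DESeq2 1.42.0, limma voom with sample weights, limma-trend on normalized reads (pseudocount 1), a depth of at least 500000 reads, 4 groups in 1 fit, a prior count of 0.5 and leaving out each library. Fits without 1-S1, 1-S8 and 2-S1 were added after seeing the data. Fits were tested on simulated counts.

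Sequences are from RefSeq, in which 31 of 36 named miRNAs were matched. The named miRNAs are miR-155-5p and its other arm, marker and inflammation lists from general knowledge, and the 5 with the most similar group means. The miRNA and the lists were chosen with earlier results of these data known.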

Additional observations from a re-analysis of the deposited data

Results flagged for a closer look

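In 4 of the 12 groups 1 library lay far from the others by Dixon's test, which chance does in about 1 group in 20. These were 1-S8, the highest acute adult-onset control (112 CPM of miR-155-5p), 1-S32, the lowest acute infancy-onset control (25.3 CPM, from 10 reads of 309975), 2-S39, the highest latent infancy-onset control (62.2 CPM), and 3-S3, the highest chronic adult-onset SE rat (55.3 CPM). 1-S1 and 2-S1, the lowest SE libraries of their groups, did not pass this test. A difference between onset ages was seen in the latent stage, where the SE change of adult-onset rats exceeded that of infancy-onset rats by 2.22 on the log2 scale in the interaction test.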

How the results depend on the processing

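Over the miR-155-5p comparisons, 793 alternative values kept their direction and side of the threshold, 9 passed the threshold where the reported value did not, 1 no longer passed and 0 turned direction. Part of these 9 come from fits without 1-S1, 1-S8, 2-S1 or 3-S3. These libraries stood apart by their miR-155-5p level, so passing without them is no support. The one that no longer passed was the acute infancy-onset change with 4 groups in 1 fit (1.4, edgeR adjusted p = 0.0507). With limma voom the acute interaction was 2.32, the adult-onset chronic minus acute difference -2.43 and the infancy-onset latent minus acute difference -1.09, all past the threshold. Without 1-S1 and 1-S8 the acute interaction was 2.63, and without these and 2-S1 the adult-onset chronic minus acute and latent minus acute differences were -2.56 and -1.43. Leaving out each library gave 1.37 to 2.47 for the acute interaction and -2.40 to -1.22 for the adult-onset chronic minus acute difference. For these the cause was not tested.

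Counts of calls moved more. From the reported value, the lowest and highest over the settings were 15, 12 and 39 (acute adult-onset), 22, 12 and 35 (acute infancy-onset), 37, 28 and 67 (latent adult-onset), 0, 0 and 10 (latent infancy-onset), 6, 6 and 24 (chronic adult-onset), 50, 32 and 60 (acute, both ages) and 9, 5 and 11 (chronic, both ages). For the interactions they were 2, 0 and 5 (acute), 15, 11 and 24 (latent) and 5, 1 and 21 (chronic), and for chronic controls 23, 18 and 132. Between stages they were 14, 8 and 18 (adult-onset latent minus acute), 7, 2 and 12 (adult-onset chronic minus latent), 5, 3 and 39 (infancy-onset latent minus acute), 0, 0 and 85 (infancy-onset chronic minus latent) and 6, 4 and 19 (infancy-onset chronic minus acute). Scaling by library totals alone moved the median of all miRNAs by 0.153 in the acute and 0.135 in the latent adult-onset comparison. No paired analysis was possible because the groups share no replicate numbers.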
